A study of Homo sapiens with 8 samples.

Results

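Mitosis is driven by cyclin-dependent kinase CDK1 with its cyclins, by the Polo and Aurora kinases, and by a checkpoint that holds chromosome separation back until every kinetochore is attached to spindle microtubules. Separation begins when the anaphase promoting complex, with its activator CDC20, marks securin and cyclin B for destruction. Most genes of this machinery are transcribed late in the cell cycle, from promoters that the DREAM and MYBL2 complexes and FOXM1 bind at an element called the cell cycle genes homology region (CHR), often together with CCAAT boxes bound by NF-Y. In tumour cells their messenger RNA is widely used as a readout of proliferation.

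Messenger RNA of 36 mitosis and spindle checkpoint genes was followed in SKOV3, a long-established ovarian cancer cell line. The genes were chosen by name, as mitotic kinases and genes of the checkpoint, chromosomes and cytokinesis, out of 22554 features in the deposited tables. The 4 LDL samples (T1 to T4) had received low-density lipoprotein, a cholesterol-carrying particle of plasma, at 50 µg/mL over 48 h. The 4 control samples (C1 to C4) were left in ordinary medium, and no time is given for them. The line was kept in McCoy's 5A with fetal bovine serum, and serum carries lipoproteins of its own. Separate cultures are not stated in the labels, so p-values measure only the spread between samples of a group, which may be technical.

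Total counts ran from 34682501 to 36780334 in LDL samples and from 37189698 to 44883561 in controls, with all LDL libraries below all control libraries. PAX8, a lineage factor of Müllerian carcinomas, averaged 410 CPM (counts scaled to a common library total) in LDL samples and 387 CPM in controls, and the epithelial keratin KRT8 averaged 1777 CPM in LDL samples and 1686 CPM in controls. KRT7, another keratin, averaged 433 CPM in LDL samples and 515 CPM in controls, and of the 10 markers on this list 5 were below 0 and 5 above, with 0 called. WT1, MUC16 and CLDN3, also listed as markers of ovarian carcinoma, were each under 1 CPM in both groups. The leukocyte gene PTPRC had a count of 0 in all 8 libraries. LDL samples 1 and 4 stood apart from the rest across all genes, with sample weights of 0.432 and 0.525 against 0.83 to 1.68 in the other 6, so counts are also given without them.

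RefSeq promoter windows, 250 bases before to 50 after each annotated start on GRCh38.p14, were matched by symbol for 29 of the 36 genes, 39 windows in all. They are shown because they hold what the mitosis genes share apart from their roles. The CHR was searched on both strands in 3 spellings, as TTTGAA, also as TTTAAA, also as TTCGAA, and the NF-Y box as CCAAT on both strands. In 2 windows of the mitosis genes a CHR spelling overlapped a CCAAT. The stretches below are the 100 bases before the start, 5′ to 3′ on the gene's strand, for the mitosis genes treated in most detail below that have a CHR spelling in the last 40 of these bases. Capitals mark every match to the 3 CHR spellings and to CCAAT, which reads as ATTGG where it lies on the other strand. The stretches lie at chr16:23678789-23678888 (PLK1, plus strand), chr5:69167050-69167149 (CCNB1, plus strand), chr5:138331805-138331904 (CDC25C, minus strand), chr1:37692416-37692515 (CDCA8, plus strand), chr11:62123911-62124010 (INCENP, plus strand), chr2:26785956-26786055 (CENPA, plus strand) and chr10:128126424-128126523 (MKI67, minus strand).
PLK1: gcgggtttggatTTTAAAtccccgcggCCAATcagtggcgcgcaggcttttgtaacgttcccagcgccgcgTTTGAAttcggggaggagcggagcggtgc
CCNB1: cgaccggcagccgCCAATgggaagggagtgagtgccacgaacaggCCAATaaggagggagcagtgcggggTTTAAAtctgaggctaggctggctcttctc
CDC25C: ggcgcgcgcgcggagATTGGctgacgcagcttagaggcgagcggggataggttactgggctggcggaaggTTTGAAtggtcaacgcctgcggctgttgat
CDCA8: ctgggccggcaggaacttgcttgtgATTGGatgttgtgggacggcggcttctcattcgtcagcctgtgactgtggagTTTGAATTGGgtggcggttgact
INCENP: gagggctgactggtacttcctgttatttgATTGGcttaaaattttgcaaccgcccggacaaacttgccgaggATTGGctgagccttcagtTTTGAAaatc
CENPA: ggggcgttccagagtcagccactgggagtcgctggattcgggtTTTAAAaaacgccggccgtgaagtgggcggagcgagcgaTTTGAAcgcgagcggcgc
MKI67: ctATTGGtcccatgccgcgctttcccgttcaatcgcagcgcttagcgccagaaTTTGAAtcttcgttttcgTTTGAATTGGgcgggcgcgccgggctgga

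These promoters were listed because a CHR spelling lay in their last 40 bases, so closeness to the start follows from that choice. Counted from the annotated start, the match began at position -30 in CCNB1 and CDC25C, at -29 in PLK1 and MKI67, at -23 in CDCA8, at -18 in CENPA and at -10 in INCENP. TTTGAA lay somewhere in the window of 21 of the 29 matched mitosis genes (72.4%), against 18.2% of the 27305 genes with a window. Within the last 40 bases before the start, TTTGAA was found in 12 of the 29 (41.4%), against 2.3% of all genes, and any of the 3 spellings in 16 of the 29 (55.2%), against 4.67% of all genes. CCAAT was found in 23 of the 29 (79.3%), against 39.7% of all genes, and at 2 or more places in 16 of the 29 (55.2%), against 12.9%. A match is a description of the letters, and the data hold no measure of binding there.

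**Figure D1:**
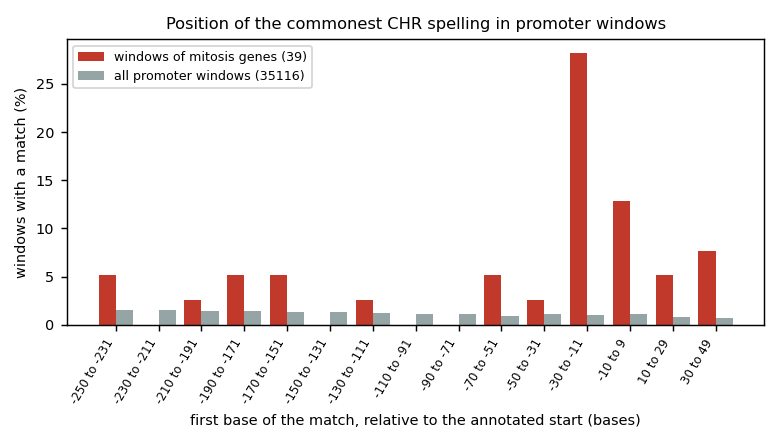
Share of promoter windows (y axis, percent) with a TTTGAA match on either strand beginning in each 20-base interval from the annotated start (x axis, bases), for 39 windows of mitosis genes and all 35116 RefSeq windows. The interval from -30 to -11 holds a match in 28.2% of the windows of mitosis genes and in 1.01% of all windows.

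The 36 genes were well expressed in both groups. All 36 passed the filter on low counts, and the smallest count of any of them in any library was 813. On the deposited FPKM scale (fragment counts scaled by length of gene and by depth), which allows levels to be compared between genes, their means over all 8 samples ran from 3.48 FPKM for CENPE, a kinesin that carries chromosomes to the spindle equator, to 278 FPKM for CDC20, the activator of the anaphase promoting complex. CDC20 had 275 ± 9.55 FPKM in LDL samples and 282 ± 10.6 FPKM in controls (SD, n = 4 each). Next in level came the CDK1-activating phosphatase CDC25B (191 ± 12.9 FPKM in LDL samples, 193 ± 7.03 FPKM in controls), the ubiquitin-conjugating enzyme UBE2C (173 ± 10.3 FPKM in LDL samples, 170 ± 5.84 FPKM in controls) and cyclin B1, CCNB1 (145 ± 8.58 FPKM in LDL samples, 154 ± 4.5 FPKM in controls). CENPE had 3.44 ± 0.255 FPKM in LDL samples and 3.52 ± 0.461 FPKM in controls. Of the 36 genes, 35 lay above 6.24 FPKM, the median of all genes tested.

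None of the 36 genes passed the test between LDL samples and controls. At a Benjamini-Hochberg adjusted p under 0.05 in the quasi-likelihood test of edgeR, the calls were 0 of 36, beside 10 of 15432 genes tested (0.0648%), of which 6 were lower in LDL samples (0.0389%), and the smallest adjusted p among the 36 was 0.675. DESeq2 also called 0 of the 36, beside 47 of 14701 genes with an adjusted p (0.32%), and so did limma voom. The log2 fold changes were small and lay mostly on the lower side. They ran from -0.15 to 0.069, with 27 of 36 below 0 (75.0%, beside 47.7% of all genes tested) and a median of -0.047, beside 0.006 for all genes. At an unadjusted edgeR p under 0.05, 5 of 36 were lower (13.9%, beside 2.72% of all genes tested) and 0 were higher (beside 2.88%). DESeq2 gave 5 lower at that unadjusted p (beside 2.49% of its 19590 genes) and limma voom 4 (beside 2.98% of all genes). In 3 of 36 all LDL samples lay below all controls (8.33%, beside 1.71%), and in 0 of 36 they all lay above (beside 1.74%). Genes of a library share its preparation and are not independent, so these shares are a description and not a test. Without LDL samples 1 and 4, a choice made after seeing the data, 25 of 36 were below 0 (beside 49.8% of all genes in that fit) with a median of -0.035, and 0 of 36 were called beside 248 of all genes. In that fit 5 of 36 were lower at an unadjusted edgeR p under 0.05 (beside 7.32% of all genes) and 2 were higher, NDC80 and PTTG1 (beside 6.55%). Since 0 of 36 passed the test, a fall is not established. Were there a fall, a smaller share of dividing cells and less of each messenger per cell could not be told apart in these bulk samples.

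The 95% intervals were computed gene by gene and were not adjusted over the 36 genes. They reflect variation among these libraries only, and cannot limit how large a difference separate cultures would show. They reached furthest down for CENPF, to -0.28 on the log2 scale (0.823-fold), and furthest up for SPC25, to 0.30 (1.23-fold), and those of the other 34 genes lay between these bounds. The median standard error of the log2 fold change was 0.053 for the 36 genes and 0.092 for all genes tested. In 29 of the 36 genes the range of the 4 controls on the log2 scale was wider than the difference between the groups.

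**Figure D2:**
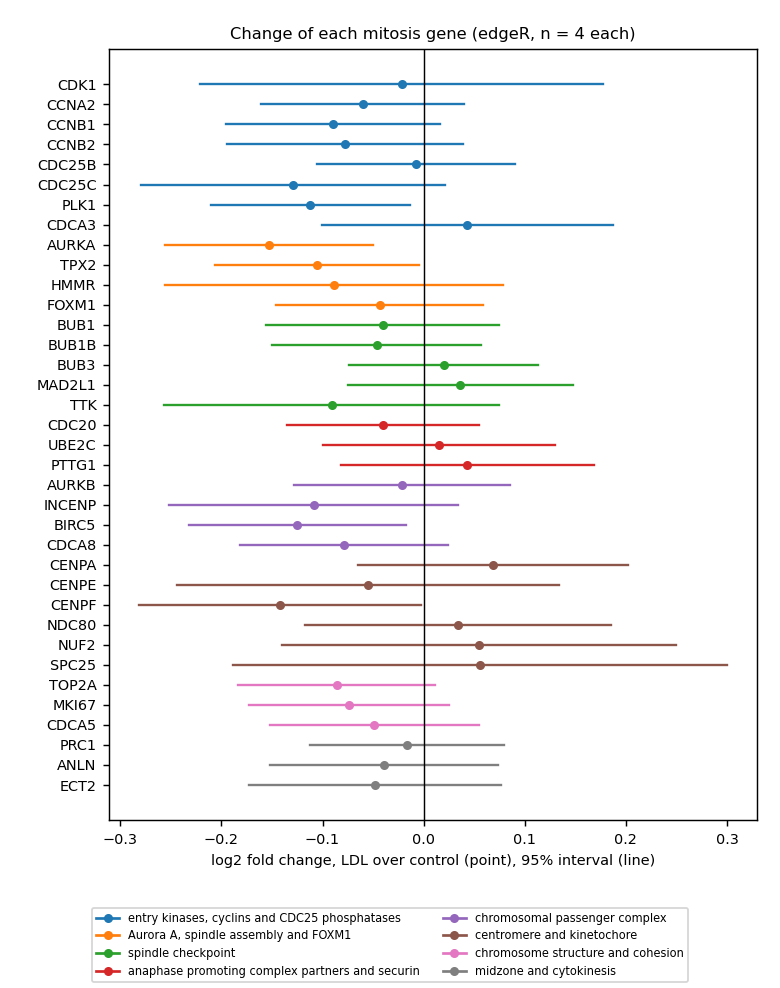
Log2 fold change of each mitosis gene in LDL samples over controls (points) with its 95% interval from edgeR (lines), n = 4 each, coloured by role. Points lie between -0.15 (AURKA) and 0.069 (CENPA), and the interval excludes 0, before adjustment, in AURKA, TPX2, PLK1, BIRC5 and CENPF.

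Summed over the 36 genes, their counts made up 0.612%, 0.607%, 0.603% and 0.594% of all counts in LDL samples 1 to 4, and 0.632%, 0.636%, 0.628% and 0.615% in controls 1 to 4. The groups did not overlap on this share, with control 4 closest to the LDL samples. The sum is weighted to the genes with most counts: CDC25B, TOP2A, CDC20, MKI67 and TPX2 held 38.7% of the summed CPM in the controls. When each gene counted alike, as the mean log2 CPM relative to the mean of all libraries, the level was -0.044, 0.010, -0.010 and -0.045 in LDL samples 1 to 4 and 0.051, 0.044, 0.019 and -0.025 in controls 1 to 4. On this scale the groups overlapped, since control 4 lay below LDL samples 2 and 3. The 13 mitochondrially encoded messengers, listed as a sign of RNA quality, took 2.66% to 2.87% of counts in LDL samples and 2.88% to 2.99% in controls, with 13 of 13 log2 fold changes below 0. Their part in the lower share of the mitosis genes was not tested.

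**Figure D3:**
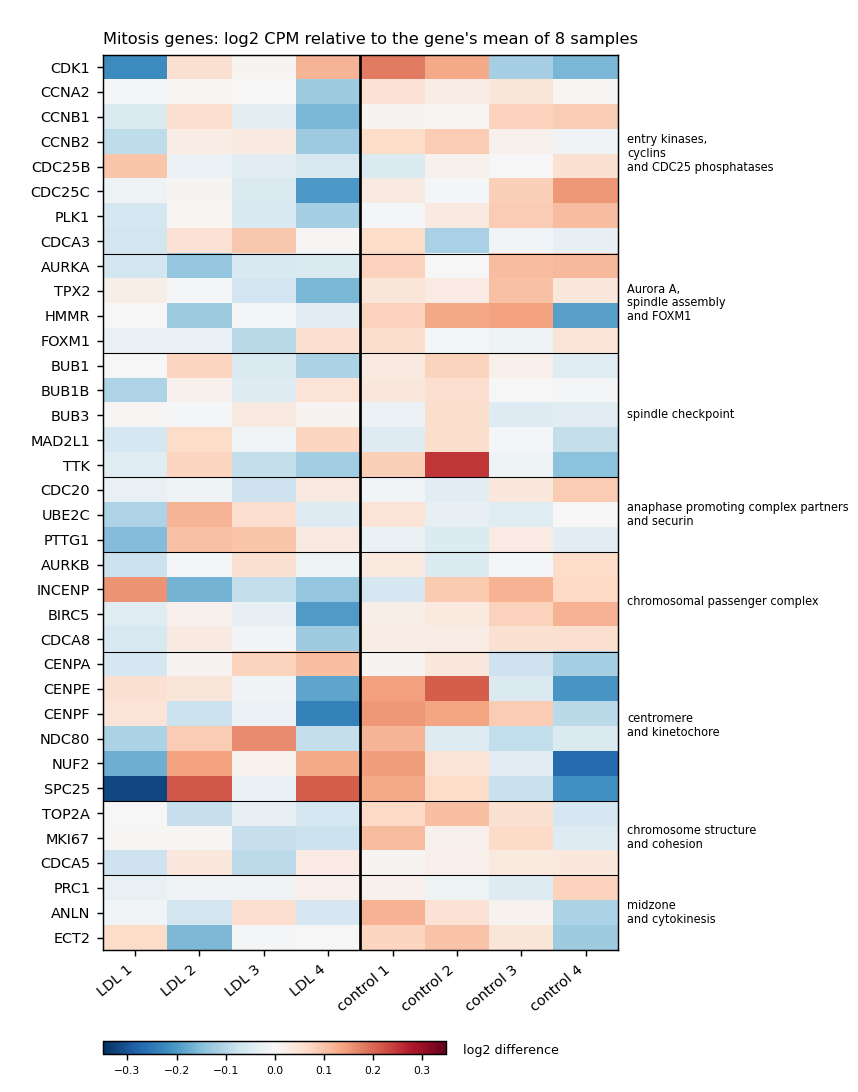
Log2 CPM of each of the 36 mitosis genes (rows, grouped by role) in each sample (columns, 4 LDL samples left of the line and 4 controls right of it), relative to the gene's mean over the 8 samples. AURKA lies between -0.13 and -0.05 in the LDL samples and from 0 to 0.11 in the controls, while NUF2 and SPC25 differ more among samples of a group than between the groups.

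Among the genes of mitotic entry, 7 of 8 had a log2 fold change below 0 and 0 passed the test. PLK1, the Polo kinase that acts at centrosomes, kinetochores and the midzone, had 200.1, 209.7, 201 and 193 CPM in LDL samples 1 to 4 and 208, 213, 222 and 225 CPM in controls 1 to 4. Only LDL sample 2, above control 1, kept the groups from separating. The means were 201 ± 7.02 CPM in LDL samples and 217 ± 7.8 CPM in controls (SD, n = 4 each; log2 fold change -0.11, SE 0.0468, edgeR unadjusted p = 0.0289, adjusted p = 0.861). CDC25C, a phosphatase that removes the inhibitory phosphates of CDK1, had 29.9, 30.5, 29.3 and 26.4 CPM in LDL samples and 31, 30.2, 32.1 and 33.7 CPM in controls (log2 fold change -0.13, SE 0.0709, edgeR adjusted p = 0.882). The groups met at LDL sample 2, which was above control 2. CCNB1, the cyclin that carries CDK1 into mitosis, had 302, 325, 306 and 279.7 CPM in LDL samples and 315, 313, 330.5 and 332 CPM in controls (log2 fold change -0.09, SE 0.0501, edgeR adjusted p = 0.884). LDL sample 2 was above controls 1 and 2.

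The remaining genes of entry were closer to level. CDK1 itself averaged 137 ± 13.6 CPM in LDL samples and 139 ± 16.6 CPM in controls (SD, n = 4 each), with a spread inside each group that was far wider than the difference. The cyclins CCNA2 and CCNB2 had log2 fold changes of -0.06 and -0.077. CDC25B was at -0.0079. CDCA3, an adaptor that promotes entry into mitosis, was at 0.043 and was the 1 gene of this group above 0.

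Aurora A and its partners held the smallest p of the whole set. AURKA, the kinase of centrosomes and spindle poles, had 114, 109, 115 and 115 CPM in LDL samples 1 to 4 and 126, 119, 129 and 129 CPM in controls 1 to 4. All LDL samples were below all controls. The means were 113 ± 3.06 CPM in LDL samples and 126 ± 4.49 CPM in controls (SD, n = 4 each; 0.899-fold, or -0.15 on the log2 scale, SE 0.0487). Taken by itself, AURKA had an exact two-sided permutation p of 0.0286, the lowest value possible with 4 samples a group, and over all genes the edgeR adjusted p was 0.675, at rank 139 by p. TPX2, which activates AURKA and brings it to spindle microtubules, had 358, 351, 337 and 316 CPM in LDL samples and 364, 360.4, 379 and 363 CPM in controls. Here too every LDL sample was below every control, though LDL sample 1 lay only just below control 2 (-0.11 on the log2 scale, SE 0.0476, edgeR adjusted p = 0.878). The others of the group were HMMR, a microtubule-binding protein of the spindle, at -0.088, and FOXM1, the transcription factor of late cell cycle genes, at -0.044 with 138 ± 5.86 CPM in LDL samples and 142 ± 3.69 CPM in controls. All 4 genes of the group were below 0 and 0 passed the test.

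In GENCODE 29 on GRCh38, AURKA spans chr20:56369389-56392337 (minus strand) and TPX2 chr20:31739271-31801805 (plus strand). On the plus strand lie PLK1 (chr16:23677656-23690367), BIRC5 (chr17:78214186-78225636) and CENPF (chr1:214603195-214664588). Some of the 36 genes share exonic bases with a neighbour, between which reads could be split. On the same strand, CENPA shares 138 bases with SLC35F6, which averaged 5148 counts, and BUB1B shares 457 bases with BUB1B-PAK6, which had 0 counts. PRC1 shares 3181 bases with AC068831.7, which is absent from the deposited counts. On the other strand, PLK1 shares 553 bases with the antisense gene AC008870.3, also absent there, and 42 with ERN2, which averaged 0.625 counts. FOXM1 shares 781 bases with ITFG2 (mean 181 counts) and CDCA3 shares 549 with GNB3 (mean 115 counts). CCNA2 and CDC25C overlap the well expressed genes EXOSC9 and FAM53C. Whether counting used strand is not given in the sources used here.

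**Figure D4:**
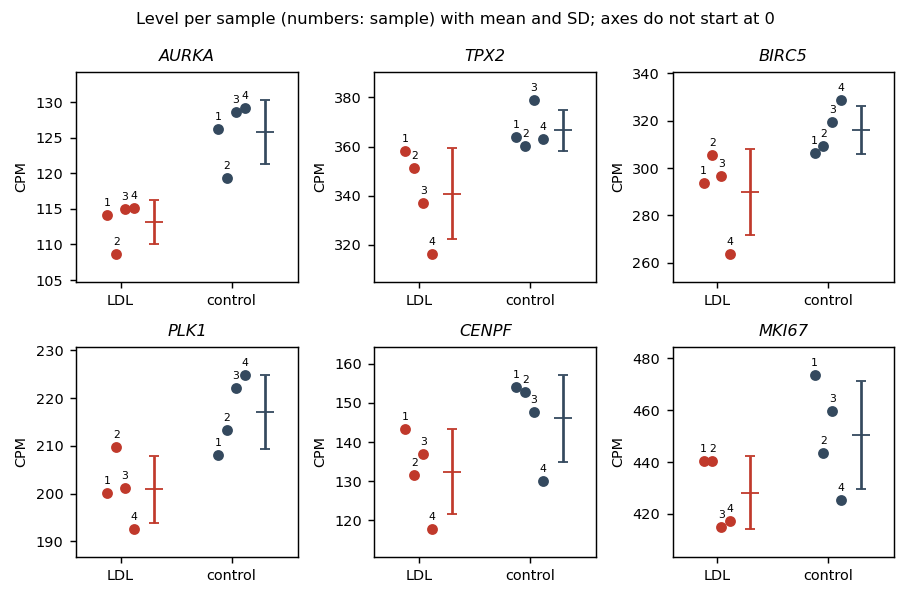
CPM of AURKA, TPX2, BIRC5, PLK1, CENPF and MKI67 in each sample (points, numbered by sample), LDL left and control right, with the mean and SD of each group beside them. The y axes do not start at 0. The groups separate in AURKA, TPX2 and BIRC5 and overlap in PLK1, CENPF and MKI67.

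The spindle checkpoint genes were split around 0, with 3 of 5 below and 0 called. TTK, the MPS1 kinase that starts checkpoint signalling, had the smallest p of the 5. It had 47.3, 51.3, 46 and 44.8 CPM in LDL samples 1 to 4 and 51.6, 57.9, 48.1 and 44.1 CPM in controls 1 to 4 (log2 fold change -0.091, SE 0.0783, edgeR adjusted p = 0.925). Control 4 was the lowest of all 8 samples and control 2 the highest. BUB1 and BUB1B, the checkpoint kinase and its relative BUBR1, were at -0.04 and -0.046. BUB3, which brings both to kinetochores, was at 0.02, and MAD2L1, which binds and restrains CDC20, was at 0.036.

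CDC20, UBE2C and PTTG1, which act with the anaphase promoting complex, showed no common direction. CDC20 had 479, 483, 465 and 499 CPM in LDL samples and 485, 476, 501 and 519 CPM in controls (log2 fold change -0.04, SE 0.0449, edgeR adjusted p = 0.942), and the groups overlapped broadly. UBE2C was at 0.015. PTTG1, securin, was at 0.043; it has close intronless relatives in the genome, among which reads could be split. Of 17 genes of the complex and its other partners 10 were below 0, with a median of -0.025, and 0 were called; the smallest p was that of the scaffold subunit gene ANAPC1, with 65.3 ± 4.49 CPM in LDL samples and 71.7 ± 4 CPM in controls (SD, n = 4 each; edgeR adjusted p = 0.878).

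All 4 genes of the chromosomal passenger complex were below 0, with 0 called. This complex corrects faulty attachments and later guides cytokinesis. BIRC5, survivin, had 294, 305, 297 and 264 CPM in LDL samples 1 to 4 and 307, 309, 319 and 329 CPM in controls 1 to 4. The groups did not overlap, though LDL sample 2 lay close below control 1, and LDL sample 4 was the lowest. The means were 290 ± 18.2 CPM in LDL samples and 316 ± 10.2 CPM in controls (SD, n = 4 each; 0.917-fold, or -0.12 on the log2 scale, SE 0.0509, edgeR unadjusted p = 0.0255, adjusted p = 0.849). Without LDL sample 4 its log2 fold change was -0.082.

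INCENP, the scaffold of the complex, was the gene on which LDL sample 1 differed most from the other LDL samples upwards. It had 151, 120.5, 128 and 123 CPM in LDL samples and 129.8, 144, 147 and 142 CPM in controls (log2 fold change -0.11, SE 0.0672, edgeR adjusted p = 0.884). LDL sample 1 was the highest of all 8, and leaving it out gave -0.19 on the log2 scale (edgeR adjusted p = 0.0879). CDCA8, borealin, had 119, 127, 123 and 114 CPM in LDL samples and 126, 126, 129 and 129 CPM in controls (log2 fold change -0.079, SE 0.0489, edgeR adjusted p = 0.884). LDL sample 2 was above controls 1 and 2. AURKB, the kinase of the complex, was closest to 0, at -0.021.

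The centromere and kinetochore genes were the group least alike, with 2 of 6 below 0 and 0 called. CENPF, a large kinetochore protein, had 143, 132, 137 and 118 CPM in LDL samples 1 to 4 and 154, 153, 148 and 130 CPM in controls 1 to 4. Sample 4 was the lowest in both groups, and control 4 lay below LDL samples 1, 2 and 3. Its means were 132 ± 10.8 CPM in LDL samples and 146 ± 11.1 CPM in controls (SD, n = 4 each; log2 fold change -0.14, SE 0.066, edgeR unadjusted p = 0.0469, adjusted p = 0.878). CENPA, the histone variant that marks centromeres, had the highest log2 fold change of the 36. It had 44.6, 46.8, 49.1 and 50 CPM in LDL samples and 46.8, 47.8, 44.2 and 42.9 CPM in controls (log2 fold change 0.069, SE 0.0632, edgeR adjusted p = 0.93), and the groups overlapped. NDC80, NUF2 and SPC25, of the complex that binds microtubule ends, were at 0.034, 0.055 and 0.056, and CENPE was at -0.055.

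SPC25 and NUF2 show how wide the spread within a group could be. SPC25 had 22, 31.9, 27 and 31.8 CPM in LDL samples and 30.1, 28.7, 26 and 23.7 CPM in controls, so that LDL sample 1 was the lowest of the 8 and LDL sample 2 the highest. NUF2 had 28.5, 35.4, 32.4 and 35.2 CPM in LDL samples and 35.6, 33.2, 31.3 and 26.6 CPM in controls. Among 33 other kinetochore and centromere genes, 14 were below 0, with a median of 0.013 and 0 called. The smallest p was that of MIS12 (23.7 ± 1.73 CPM in LDL samples, 25.6 ± 1.04 CPM in controls, SD, n = 4 each; edgeR adjusted p = 0.891).

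All 3 genes of chromosome structure and cohesion were below 0, with 0 called. TOP2A, the topoisomerase that untangles sister chromatids, had 507, 479, 496 and 485 CPM in LDL samples 1 to 4 and 531, 545, 525 and 486 CPM in controls 1 to 4 (log2 fold change -0.086, SE 0.0463, edgeR adjusted p = 0.882). Controls 1 to 3 were above every LDL sample and control 4 was not. MKI67, the Ki-67 antigen used to score dividing cells, had 440.3, 440.3, 415 and 417 CPM in LDL samples and 474, 444, 459.8 and 425 CPM in controls. Again controls 1 to 3 were above every LDL sample, while control 4 lay among them. The means of MKI67 were 428 ± 14 CPM in LDL samples and 451 ± 20.8 CPM in controls (SD, n = 4 each; 0.95-fold, or -0.074 on the log2 scale, SE 0.0467, 95% interval -0.17 to 0.025, edgeR adjusted p = 0.884). CDCA5, sororin, which protects cohesin, was at -0.049.

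Among 16 genes of condensin, cohesin and their regulators, 11 were below 0 with a median of -0.029 and 0 called. NCAPD2, a condensin subunit gene, had 154, 144, 133 and 138 CPM in LDL samples and 155, 157, 158 and 157 CPM in controls (log2 fold change -0.14, SE 0.0505, edgeR adjusted p = 0.802). The 4 controls lay close together and all above the 4 LDL samples.

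All 3 genes of the midzone and cytokinesis were below 0, with a median of -0.039, beside -0.047 for the 36 genes. ECT2, the exchange factor that activates RhoA at the cleavage furrow, had 178, 152, 169.8 and 170.2 CPM in LDL samples 1 to 4 and 179, 182, 175 and 156 CPM in controls 1 to 4 (log2 fold change -0.048, SE 0.059, edgeR adjusted p = 0.949). LDL sample 2 and control 4 were the low ones. The furrow scaffold ANLN was at -0.039 and PRC1, which bundles midzone microtubules, at -0.016, and 0 of the 3 passed the test.

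Further lists gave a measure of other parts of the cell cycle. Of 23 other mitotic regulators 16 were below 0, with a median of -0.047 and 0 called; PIMREG, a mitotic regulator, had the smallest p (39.9 ± 1.77 CPM in LDL samples, 44.7 ± 2.12 CPM in controls, SD, n = 4 each; log2 fold change -0.16, SE 0.0629, edgeR adjusted p = 0.822). Of 12 genes of the MYBL2 and DREAM complexes 8 were below 0 (median -0.029), and TFDP2 had the smallest p (edgeR adjusted p = 0.884). Of 20 genes of the G1/S transition and DNA synthesis 13 were below 0 (median -0.02), and RRM1, a ribonucleotide reductase subunit gene, had the smallest p (edgeR adjusted p = 0.884). No list held a called gene, and whether the 36 genes differ from these lists was not tested.

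The difference between control 4 and the other controls ran with the base composition of the messengers. Transcript GC content, taken from the longest coding transcript in GENCODE 29, ran from 35.3% in CENPE to 59.6% in INCENP over the 36 genes. Control 4 had less of the GC-poor messengers than controls 1 to 3, with log2 differences of -0.32 for NUF2, -0.31 for HMMR and -0.30 for CENPE, and slightly more of GC-rich ones such as CDC20 (0.092) and PLK1 (0.069). The Spearman correlation of this difference with GC content was 0.802 across the 36 genes. It was 0.434 across 13633 tested genes with a GC value. The Pearson correlation was 0.765 across the 36 genes and 0.195 across the 13633. Genes of a library share its preparation and are not independent. For LDL sample 1 against the other LDL samples, the Spearman correlation with GC content was 0.015 across the 36 genes. For the log2 fold change between LDL samples and controls it was -0.084. No other sample was compared with GC content in this way.

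The 12 GC-poorest and the 12 GC-richest of the 36 genes differed in how the controls lay. The GC-poor set, at 40.8% or less, had mean levels of -0.064, 0.015, 0.0053 and -0.02 in LDL samples 1 to 4 and 0.11, 0.10, -0.0042 and -0.14 in controls 1 to 4. The GC-rich set, at 49.3% or more, had -0.036, 0.011, -0.014 and -0.045 in LDL samples and 0.01, -0.0055, 0.031 and 0.048 in controls. The median log2 fold change was nearly the same in both, at -0.044 in the GC-poor and -0.042 in the GC-rich set. After a smooth correction of every library for GC content and transcript length, chosen after seeing the data, 29 of 36 genes were below 0 (beside 47.4% of all genes in that fit) with a median of -0.05, and 6 were lower at an unadjusted edgeR p under 0.05 (beside 2.92%). With that correction AURKA was at -0.16 (edgeR adjusted p = 0.312) and PLK1 at -0.12 (edgeR adjusted p = 0.484). MKI67, with a GC content of 48.3% and a transcript of 12678 bases, was at -0.0034. CENPF, with a transcript of 10307 bases, went from -0.14 to -0.10 (edgeR unadjusted p = 0.0579 with the correction). The parts of GC content and of length in these shifts were not tested.

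**Figure D5:**
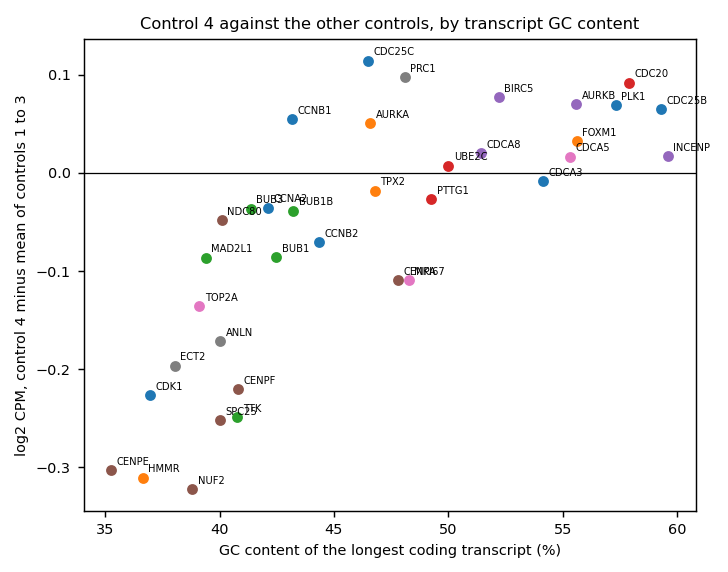
Log2 CPM in control 4 minus the mean of controls 1 to 3 (y axis) for each of the 36 mitosis genes, against the GC content of the longest coding transcript (x axis, percent), coloured by role as in the plot of log2 fold changes. Genes under 41% GC all lie below 0, down to -0.32, and those over 55% all lie above 0.

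The promoter letters and the log2 fold changes were set side by side. The 16 genes with a CHR spelling in the 40 bases before the start had a median log2 fold change of -0.061, with 14 of 16 below 0. The 13 matched genes without one there had a median of -0.04, with 8 of 13 below 0. Of all genes tested 47.7% were below 0. The sets also differ in base composition. In the set without a spelling, CENPE, ECT2, NUF2, TOP2A, MAD2L1, SPC25, NDC80 and CENPF are among the 12 GC-poorest genes. In the set with a spelling, HMMR, CDK1 and ANLN are. AURKA, TPX2, FOXM1, BUB3, TTK, UBE2C and BIRC5 had no matched window and are in neither set. Among them are AURKA, TPX2 and BIRC5, in which all LDL samples lay below all controls. The sets with and without a spelling were chosen after the values were seen and their difference was not tested.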

How the data were processed

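Messenger RNA of SKOV3 cells was made into TruSeq Stranded libraries, per the labels' protocols. HISAT2, featureCounts, DESeq2 1.26.0 and GRCh38 appear, without their roles, per the submitters' processing notes. The deposited counts are whole numbers that behave like estimated counts and were used as such; the deposited FPKM values carry the authors' own scaling to length and depth. Groups came from the sample titles. No columns of other samples were present.

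Over 15432 genes, edgeR 4.0.16 (R 4.3.3) gave the quasi-likelihood test (TMM, default filterByExpr, robust dispersion, group as sole term), with Benjamini-Hochberg adjustment and a threshold of 0.05. CPM are TMM-scaled, except marker levels and shares of all counts. The log2 levels use a prior count of 2. The procedure was tested on simulated data. DESeq2 1.42.0 and limma 3.58.1 gave alternatives.

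The genes and lists were chosen with earlier results of these data known, and no p was adjusted over the genes alone. The genes given with values in every sample were, by rule, that with the smallest p in each of 8 role groups, then the next by p up to 14, the highest and lowest log2 fold change, and MKI67; of each other list, the gene with the smallest p. SPC25, NUF2 and other genes given as examples were chosen after their values were seen. Chi-square per degree of freedom between replicates was 6.84 to 28.9, more than counting noise gives, so each library entered as its own sample; this does not show that they came from separate cultures.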

Additional observations from a re-analysis of the deposited data

Results flagged for a closer look

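In 2 of 74 groups of 4 values checked (each of the 36 genes and their mean level, in LDL samples and in controls), 1 sample lay apart from the other 3 by more than Dixon's 95% critical value for the gap over the range, which chance exceeds in about 1 of 20 groups. CCNA2 was at 135.8 CPM in LDL sample 4, against 147.6 to 148.8 CPM in the other LDL samples. AURKA was at 108.7 CPM in LDL sample 2, against 114.1 to 115.1 CPM in the other LDL samples.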

How the results depend on the processing

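No alternative called any of the 36 genes; the smallest adjusted p in any of the 22 was 0.0879 (INCENP without LDL sample 1). The number below 0 stayed between 25 and 29 and the median between -0.073 (without control 4) and -0.035. The sign held under all 22 alternatives for 26 of the 36 genes, of which 22 were below 0 and 4 above. The count lower at an unadjusted p under 0.05, 5 of 36, is read against the share of all genes in the same fit, 2.72%. It was 8 with sample quality weights (6.44% of all genes), 1 with log2(FPKM + 1) (2.15%) and 2 with log2(FPKM + 0.1) (2.17%) at a mean FPKM of at least 0.5, and 3 with log2(FPKM + 1) and no minimum (2.24%). With a sample left out it was 1 to 7: 1 without control 3 (1.75%) or LDL sample 4 (2.51%), 2 without LDL sample 3 (2.13%), 3 without control 2 (2.31%) and 7 without LDL sample 1 (7.22%). The counts of 8 and 7 came where the share of all genes was also higher.

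Over all genes the 10 calls became 47 with DESeq2, 27 with sample quality weights, 5 with log2(FPKM + 0.1), 2 with log2(FPKM + 1) and no minimum, 17 after GC and length correction, 248 without LDL samples 1 and 4, and 2 to 149 with each sample left out. With the replicate number as a block there were 2 calls over all genes and 2 of 36 genes lower at an unadjusted p under 0.05 (2.19% of all genes). The labels do not state a pairing of same-numbered samples, and the main test used none. The deviations of same-numbered samples correlated at -0.10, 0.060, 0.032 and -0.0043. Those of differently numbered samples correlated at -0.057 to 0.066, so these values cannot settle whether samples were paired.

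The cause of these shifts was not tested. The lowest count of any of the 36 genes in any library was 813, and the median standard error of their log2 fold changes was 0.053 with 4 samples a group.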
